A study of Homo sapiens with 15 samples.

Results

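Interferon-stimulated genes (ISG) are genes whose RNA rises when a cell senses an interferon, and 44 symbols of this class were followed here in 2 human clear cell renal cell carcinoma (ccRCC) lines with and without angiopoietin-like 4 (ANGPTL4). RIGI and DDX58 are symbols of the same gene, so the list held 43 genes, of which 41 were among the 16296 genes measured in CAKi-1 and 43 among the 16188 measured in 786O. All 41 of the first were among the 15247 genes measured in both lines. RSAD2 and CMPK2 were measured in 786O and not in CAKi-1. A gene is called measured here if the deposited values of the line hold it. The filter that set this is not given, so absence from them gives no level. The genes were chosen by symbol, with earlier results of these data known.

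RNA-seq was performed to examine how gene expression changes when ANGPTL4 is lost. CAKi-1, which carries wild-type VHL, was represented by 4 WT and 5 ANGPTL4 KO (A4KO) libraries, and 786O, which carries mutant VHL, by 3 WT and 3 A4KO libraries. Clones were grown from a CRISPR-Cas9 pool of each line, those with the knockout as judged by ANGPTL4 RNA were mixed to give its A4KO cells, and 786O WT was a mix of clones without the knockout. For CAKi-1 the methods name parental cells as WT, whereas the deposited description names combined clones, and the labels give RPMI medium whereas the methods give DMEM. All cells were harvested in log phase, and the labels name no added interferon. Because each A4KO population came from a set of selected clones, loss of ANGPTL4 and other properties of those clones cannot be told apart, and nothing in the labels shows that replicates were grown from separate cultures, so p-values measure the spread between these libraries.

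Type I and type III interferons activate receptor-bound Janus kinases, and these phosphorylate STAT factors, among them STAT2, which joins IRF9 in the ISGF3 complex. ISGF3 binds the interferon-stimulated response element (ISRE) in promoters, while the response to interferon gamma runs through the gamma-activated site (GAS). The induced proteins sense viral RNA and DNA, block viral replication, attach the ubiquitin-like protein ISG15 to targets, and feed back on the receptor. Many ISG are expressed at a low level without added interferon, and tumor cells can hold a subset of them at a raised level.

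Promoter sequences are shown for 9 of the genes on which the comparisons below turn, with the letters that match the ISRE core in capitals. They were read from RefSeq (GRCh38.p14) in the direction of transcription, 5′ to 3′. The core was searched as GAAANNGAAA on both strands, so that a match on the other strand reads TTTCNNTTTC, in the window from 250 bases before to 50 bases after an annotated gene start, and matches may overlap each other. IFIT3, RSAD2, DDX60 and ISG20 are among those that rose in 786O A4KO cells, MX1 and IFI6 fell there, and IFI27, BST2 and ISG15 had opposite changes in the 2 lines. The stretches of IFIT3, IFI6, IFI27 and ISG15 overlap no annotated exon in GENCODE release 44. The others overlap an exon of some transcript and are shown as 30 bases around a match.
IFIT3 (chr10:89327816-89327909, plus strand): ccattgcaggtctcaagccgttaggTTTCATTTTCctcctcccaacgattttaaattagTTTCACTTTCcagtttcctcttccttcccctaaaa
RSAD2 (chr2:6877622-6877651, plus strand): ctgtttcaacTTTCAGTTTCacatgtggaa
DDX60 (chr4:168318821-168318850, minus strand): gtgctgaaggGAAACTGAAAcctaagtgct
ISG20 (chr15:88638937-88638966, plus strand): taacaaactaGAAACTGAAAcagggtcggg
MX1 (chr21:41420559-41420588, plus strand): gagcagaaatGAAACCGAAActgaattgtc
IFI6 (chr1:27672251-27672373, minus strand): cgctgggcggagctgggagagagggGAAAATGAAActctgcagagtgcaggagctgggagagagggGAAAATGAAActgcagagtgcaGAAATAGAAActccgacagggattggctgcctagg
IFI27 (chr14:94110603-94110675, plus strand): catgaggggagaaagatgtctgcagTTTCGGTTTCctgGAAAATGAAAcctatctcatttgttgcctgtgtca
BST2 (chr19:17405738-17405767, minus strand): tttctggGAAACTGAAACTGAAAacctaat
ISG15 (chr1:1013359-1013424, plus strand): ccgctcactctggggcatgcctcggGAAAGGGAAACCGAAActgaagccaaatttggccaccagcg
The IFIT3 window held 2 matches, that of IFI6 held 3, and those of IFI27, BST2, ISG15 and DDX60 held 2 each, of which 1 is shown for DDX60. The MX1 match begins at base 12 of the annotated transcript and that of RSAD2 at 145 bases before an annotated start. The starts used for RSAD2, DDX60, ISG20 and IFI27 lie inside the gene as annotated at its longest. Of the 43 genes, 34 had a window in the RefSeq table, and 23 of these (67.6%) held at least 1 ISRE match, against 4.10% of the 12766 measured genes with a window. The GAS letters TTCNNNGAA were present in 10 of the 34 (29.4%), against 8.76% of measured genes. IRF7, DHX58, IFIT2, OAS2, OASL, MX2, TRIM22, GBP2 and USP18 had no window. A match is a description of these letters, and binding was not measured.

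ANGPTL4 was at 71.7 to 86.9 TPM, the share of a library's transcripts corrected for transcript length, in CAKi-1 WT and at 2.87 to 7.26 TPM in A4KO libraries, and in 786O at 17.6 to 20.6 and 1.86 to 2.19 TPM, so every library matched its label. The deposited values summed to between 961437 and 973887 per library, and TPM keeps no read depth. The kidney factor PAX8 was expressed in every library, while PAX2 and the ccRCC marker CA9 were not measured in CAKi-1. Of 6 immune cell markers, the 5 measured in CAKi-1 summed to at most 1.53 TPM in any CAKi-1 library. In 786O 4 of 6 were measured, and NCAM1 made up nearly all of their 37.0 to 41.1 TPM in WT and 10.2 to 10.8 TPM in A4KO cells, with PTPRC and CD14 under 1 TPM. The fibroblast markers COL1A1 and PDGFRB summed to 20.3 to 29.4 TPM in CAKi-1 WT and 46.3 to 69.3 TPM in A4KO libraries, the 5 renal epithelial markers measured there summed to 2219 to 3069 and 777 to 1226 TPM, with KRT8 and KRT18 lower in A4KO cells, and the endothelial marker PECAM1 rose from 0.360 ± 0.145 to 3.29 ± 1.96 TPM (limma adjusted p = 0.00274). In 786O A4KO cells PDGFRB was 11.5-fold and PAX2 3.67-fold higher, and CA9 was 26.2-fold and PAX8 1.52-fold lower, each at a limma adjusted p under 0.05. The part of these shifts in the results was not tested. CAKi-1 A4KO replicates 1 and 4 stood apart from replicates 2, 3 and 5, with ANGPTL4 at 7.26 and 6.47 TPM against 2.87 to 2.90 TPM, and each ISG whose side of the test changed without them is given both ways.

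**Figure D1:**
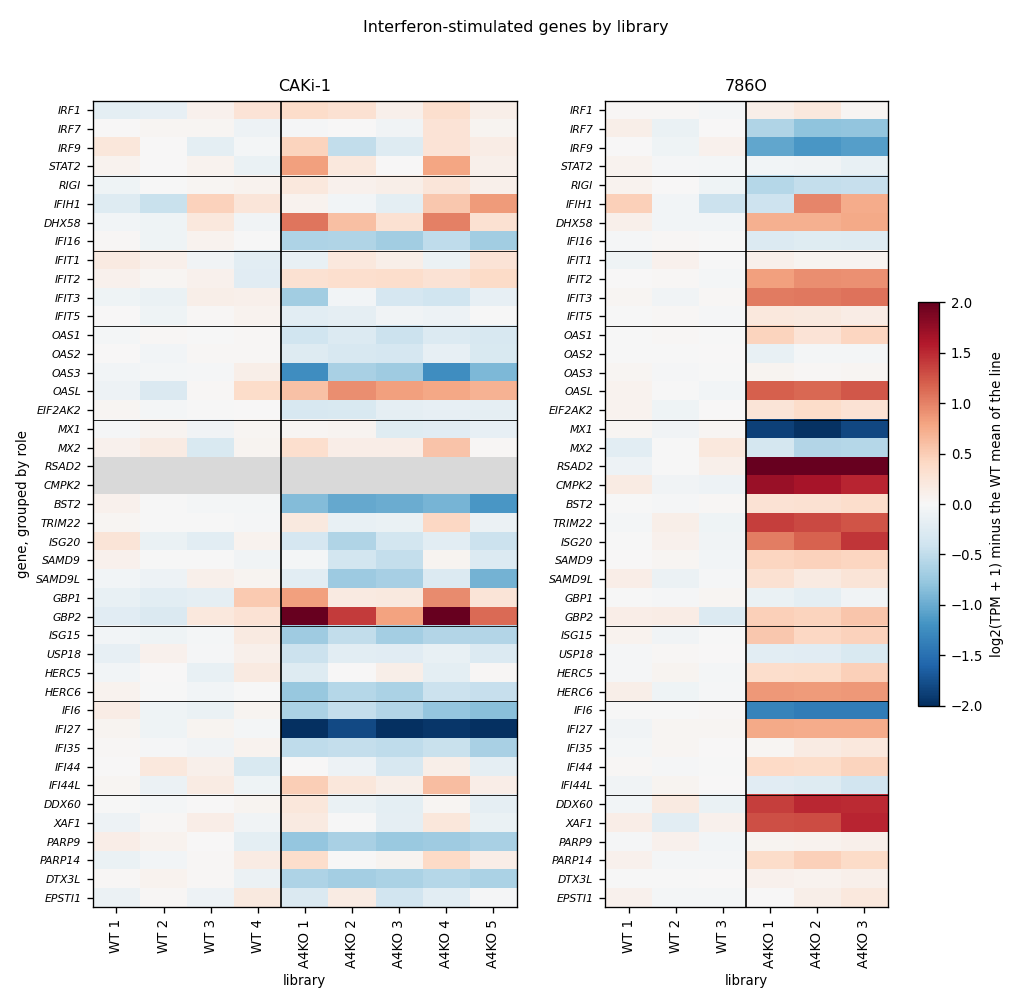
Each row is 1 interferon-stimulated gene and each column 1 library, colored by log2(TPM + 1) minus the mean of the WT libraries of that line, with roles separated by lines and grey where a gene was not measured. The A4KO columns of 786O are mostly red with MX1, IFI6 and IRF9 in blue, and those of CAKi-1 are blue for IFI27, BST2 and ISG15 and red for GBP2.

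More ISG fell than rose in CAKi-1 A4KO cells, with 20 of 41 not passing the test, and more rose than fell in 786O A4KO cells, each against the WT cells of the same line. In bulk RNA a change in every cell and a change in the share of expressing cells cannot be told apart. In CAKi-1 A4KO cells 16 of 41 genes (39.0%) fell and 5 (12.2%) rose at a limma adjusted p of at most 0.05, where 21.1% of all genes fell and 17.9% rose. In 786O 23 of 43 (53.5%) rose and 9 (20.9%) fell, where 27.5% of all genes rose and 33.5% fell. At a log2 fold change of at least 1 as well, GBP2 was called higher (1 of 41, 2.44%, against 2.21% of all genes) and IFI27 lower (1 of 41, against 1.12%) in CAKi-1. The calls in 786O were 8 higher (18.6%, against 2.43% of all genes), which are RSAD2, CMPK2, DDX60, XAF1, TRIM22, ISG20, OASL and IFIT3, and 3 lower (6.98%, against 5.19%), which are MX1, IFI6 and IRF9. Over all measured genes of 786O, 393 were called higher and 840 lower, and after quantile normalization 519 and 697, with the calls of the ISG at 8 and 3 in both.

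The median log2 fold change (A4KO minus WT, on the log2(TPM + 1) scale) of the ISG was -0.11 in CAKi-1, with all genes at -0.01, and 0.30 in 786O, with all genes at -0.03. Library by library, the median ISG lay between 0.12 and 0.23 log2 units under the WT mean in the 5 CAKi-1 A4KO libraries, and between 0.25 and 0.29 above it in the 3 A4KO libraries of 786O. The groups did not overlap for 20 of 41 ISG in CAKi-1 (35.9% of all genes) and for 38 of 43 in 786O (66.9% of all genes). Over CAKi-1 A4KO replicates 2, 3 and 5 alone, 4 ISG rose and 19 fell, where 16.7% of all genes rose and 22.2% fell, BST2 joined IFI27 as a call, and the median was -0.17. The summed level of the list was 961 to 1013 TPM in CAKi-1 WT and 641 to 777 TPM in A4KO libraries, and 2385 to 2422 TPM in 786O WT and 2573 to 2607 TPM in A4KO libraries. IFI27, BST2 and IFI16 had the highest mean levels in CAKi-1, and IFI6, BST2 and IFI27 in 786O.

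**Figure D2:**
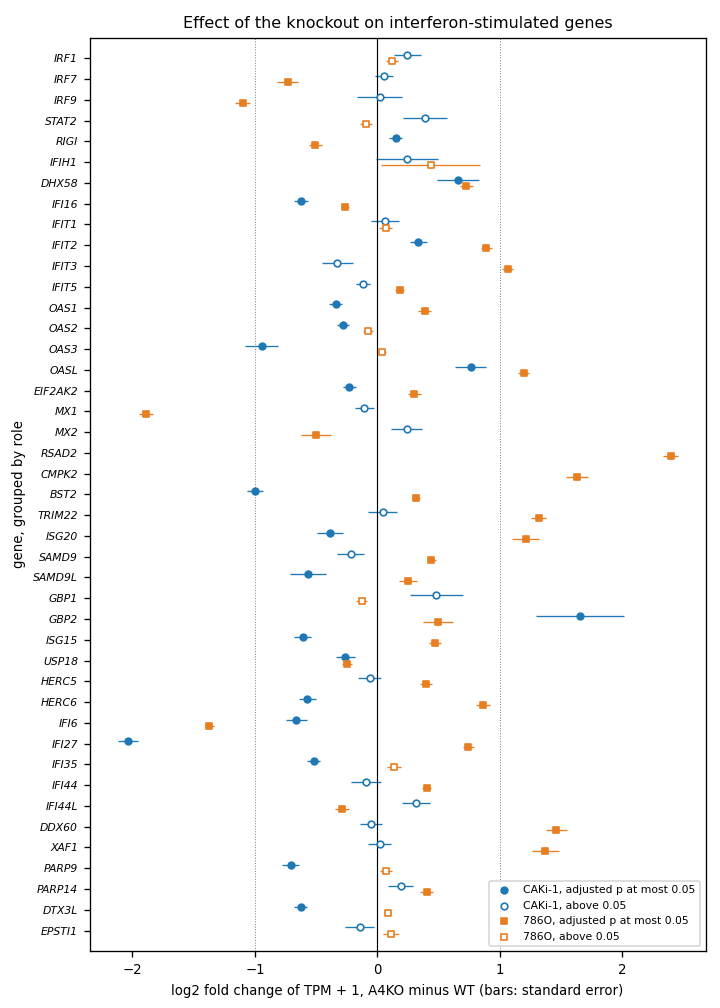
Points are the log2 fold change of TPM + 1 (A4KO minus WT) of each gene in CAKi-1 (circles) and 786O (squares), bars are the standard error, and filled symbols have a limma adjusted p of at most 0.05. IFI27 lies at -2.04 in CAKi-1 and 0.74 in 786O, and RSAD2 at 2.39 in 786O.

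Of the transcription factors of the pathway, none of 4 passed the test in CAKi-1, and IRF7 and IRF9 fell in 786O. IRF9 (chromosome 14, 24161265 to 24166565), the DNA-binding subunit of ISGF3, was at 84.0, 78.8 and 89.2 TPM in 786O WT and at 40.5, 36.8 and 38.8 TPM in A4KO libraries. All A4KO libraries lay below all WT libraries, and the means of 84.0 ± 5.20 and 38.7 ± 1.88 TPM (SD, n = 3 each) differed by a log2 fold change of -1.10 (SE, the standard error, 0.061, limma adjusted p = 1.92e-05). Its chromosomal neighbors fell too, and with their median shift taken off each library (neighbor-centered) IRF9 was at -0.26 and no longer called. In CAKi-1, IRF9 was at 17.0, 14.5, 12.3 and 13.9 TPM in WT and 19.8, 9.84, 11.8, 17.4 and 15.9 TPM in A4KO replicates 1 to 5, with the WT values inside the A4KO range and a log2 fold change of 0.02 (limma adjusted p = 0.952). IRF7, which amplifies interferon production after viral sensing, was at 11.6, 9.56 and 10.7 TPM in 786O WT and 6.65, 5.66 and 5.70 TPM in A4KO cells. It was 1.77-fold lower with no overlap (log2 fold change -0.73, SE 0.086, limma adjusted p = 0.000485). In CAKi-1 IRF7 was at 6.25, 6.43, 6.40 and 5.73 TPM in WT and 6.08, 6.26, 5.87, 7.71 and 6.48 TPM in A4KO libraries, which overlapped (log2 fold change 0.05, limma adjusted p = 0.621). Neighbor-centered, IRF7 was higher there by 0.38 (adjusted p = 0.00606).

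STAT2, which joins IRF9 in ISGF3, was at 21.0, 20.0, 20.9 and 18.0 TPM in CAKi-1 WT. In A4KO replicates 1 to 5 it was at 36.1, 23.2, 20.2, 35.3 and 21.6 TPM, with replicates 1 and 4 well above the others. The log2 fold change was 0.39 (SE 0.18, limma adjusted p = 0.113), and 0.11 without those 2 libraries (limma adjusted p = 0.264). In 786O STAT2 was at 36.5, 34.0 and 33.8 TPM in WT and 33.3, 33.2 and 31.3 TPM in A4KO libraries, a log2 fold change of -0.09 with a limma adjusted p of 0.146, which passed as lower neighbor-centered (-0.16, adjusted p = 0.0336). IRF1, a factor induced most strongly by interferon gamma, was at 38.3, 39.4, 46.9 and 53.7 TPM in CAKi-1 WT and 57.2, 54.7, 47.7, 55.9 and 48.0 TPM in A4KO libraries. In 786O it was at 43.9, 44.0 and 42.2 and 47.0, 50.2 and 44.7 TPM. Its log2 fold changes of 0.25 and 0.12 did not pass the test (limma adjusted p = 0.0981 and 0.0877). That in CAKi-1 passed neighbor-centered (0.32, adjusted p = 0.0431) and without WT replicate 4 (adjusted p = 0.025), and that in 786O without A4KO replicate 3 (adjusted p = 0.0412).

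Among the sensors of foreign nucleic acid, IFI16, which binds DNA, fell in both lines. IFI16 (chromosome 1, 158999976 to 159055151) was at 133, 124, 139 and 130.0 TPM in CAKi-1 WT and 85.2, 85.9, 80.6, 92.0 and 80.8 TPM in A4KO libraries. It was at 59.7, 61.5 and 60.1 TPM in 786O WT and 49.6, 50.8 and 50.3 TPM in A4KO libraries. The groups did not overlap in either line, and the log2 fold changes were -0.62 (SE 0.057, limma adjusted p = 6.52e-05) and -0.26 (SE 0.034, limma adjusted p = 0.000729). RIGI, a helicase that detects viral RNA, fell from 15.1 ± 0.843 to 10.3 ± 0.478 TPM in 786O (log2 fold change -0.51, limma adjusted p = 0.000347, and -0.26 neighbor-centered). In CAKi-1 it was at 9.28 ± 0.454 TPM in WT and 10.4 ± 0.534 TPM in A4KO cells, with a limma adjusted p of 0.0495 that was above 0.05 after quantile normalization (0.0518), without A4KO replicates 1 and 4 (0.131), with a pseudocount of 0.1, without low genes, with trend and robust eBayes or the replicate block (0.0538 to 0.101), and without any single library other than A4KO replicate 5 (0.0518 to 0.138). DHX58, a relative of RIGI that modulates RNA sensing, rose in both lines, by 1.72-fold in CAKi-1 and 1.73-fold in 786O (limma adjusted p = 0.0153 and 7.34e-05), and in CAKi-1 its log2 fold change of 0.66 was 0.40 without replicates 1 and 4. IFIH1, which detects long double-stranded RNA, had SEs of 0.25 and 0.41 around log2 fold changes of 0.25 and 0.44 and did not pass in either line, although in 786O it passed without A4KO replicate 1 (0.86, adjusted p = 0.0413).

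The 4 IFIT genes, whose products bind viral RNA and block its translation, lie within chromosome 10 from 89302046 to 89420997. IFIT3 was at 38.7, 35.7 and 38.0 TPM in 786O WT and 78.4, 78.7 and 81.0 TPM in A4KO libraries. All A4KO libraries were above all WT libraries, and the 2.12-fold rise had a log2 fold change of 1.06 (SE 0.043, limma adjusted p = 6.02e-06). In CAKi-1 IFIT3 was at 11.4, 11.0, 13.4 and 13.2 TPM in WT and 7.18, 11.7, 9.50, 9.04 and 10.8 TPM in A4KO libraries. Only A4KO replicate 2 lay inside the WT range, and the log2 fold change of -0.33 did not pass the test (limma adjusted p = 0.0636). It passed without that library (adjusted p = 0.0304), and was -0.18 without A4KO replicates 1 and 4 (adjusted p = 0.162) and -0.06 neighbor-centered (adjusted p = 0.726). IFIT2 rose in both lines, from 3.99 ± 0.498 to 5.28 ± 0.175 TPM in CAKi-1 (log2 fold change 0.34, and 0.60 neighbor-centered) and from 13.3 ± 0.312 to 25.5 ± 1.02 TPM in 786O. IFIT5 rose by 1.15-fold in 786O, where its log2 fold change of 0.18 was 0.29 after quantile normalization and 0.12 neighbor-centered. IFIT1 was at 26.5 ± 1.67 TPM in 786O WT and 27.9 ± 0.545 TPM in A4KO cells (SD, n = 3 each) and did not pass the test (log2 fold change 0.07, SE 0.053, limma adjusted p = 0.303).

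Of the oligoadenylate synthetase (OAS) family, which activates RNase L on sensing double-stranded RNA, and the kinase EIF2AK2, which then stops protein synthesis, 4 of 5 fell and 1 rose in CAKi-1 (21.1% and 17.9% of all genes), and 3 rose and none fell in 786O (27.5% and 33.5% of all genes). OASL, the family member without synthetase activity, was at 0.711, 0.513, 0.867 and 1.39 TPM in CAKi-1 WT and 1.77, 2.52, 2.26, 2.16 and 1.97 TPM in A4KO libraries. In 786O it was at 7.37, 6.91 and 6.71 TPM in WT and 17.3, 16.7 and 17.8 TPM in A4KO libraries. The groups did not overlap in either line, the means rose 2.46-fold and 2.47-fold, and the log2 fold changes were 0.76 and 1.19 (SEs 0.13 and 0.047, limma adjusted p = 0.00154 and 5.47e-06). A low level pulls the fold change of TPM + 1 toward 0, and with 0.1 added in place of 1 the log2 fold change of OASL in CAKi-1 was 1.27.

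The 3 OAS synthetase genes are neighbors on chromosome 12 between 112906962 and 113011723. OAS3 showed the largest fall among them in CAKi-1, from 23.4 ± 1.28 (SD, n = 4) to 11.8 ± 2.47 TPM (SD, n = 5), a log2 fold change of -0.95 (limma adjusted p = 0.000637), and it was at 62.9 ± 1.35 and 64.5 ± 0.820 TPM in 786O (log2 fold change 0.04, limma adjusted p = 0.417), where it was lower neighbor-centered (-0.17, adjusted p = 0.00753). OAS1 fell by a log2 fold change of 0.34 in CAKi-1 and rose by 0.39 in 786O (limma adjusted p = 0.000873 and 0.00104), and neighbor-centered these were -0.18 and 0.20. OAS2 fell by 0.28 in CAKi-1, a change that did not pass neighbor-centered (adjusted p = 0.187), and in 786O it did not pass (-0.08, limma adjusted p = 0.167) but was lower neighbor-centered (-0.27, adjusted p = 0.00293). EIF2AK2 fell by 0.23 in CAKi-1 and rose by 0.30 in 786O, where the neighbor-centered adjusted p was 0.103.

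MX1 and RSAD2 moved in opposite directions in 786O A4KO cells, and each by more than any other ISG of its direction. MX1 (chromosome 21, 41420558 to 41459214), a dynamin-like GTPase that traps viral nucleocapsids, was at 46.2, 43.1 and 46.2 TPM in 786O WT and 11.6, 10.7 and 12.0 TPM in A4KO libraries. The fall was 3.94-fold with no overlap (log2 fold change -1.89, SE 0.055, limma adjusted p = 1.86e-06). In CAKi-1 MX1 was at 9.11, 9.62, 8.73 and 9.56 TPM in WT and 9.50, 9.63, 7.64, 7.80 and 8.19 TPM in A4KO libraries, which overlapped (log2 fold change -0.11, limma adjusted p = 0.296). MX2, its neighbor on chromosome 21, fell from 5.71 ± 0.997 to 3.71 ± 0.456 TPM in 786O (limma adjusted p = 0.012), and did not pass after quantile normalization (adjusted p = 0.117).

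RSAD2 (viperin), a radical SAM enzyme that makes a chain-terminating nucleotide, was at 2.80, 3.05 and 3.37 TPM in 786O WT and 20.3, 20.9 and 19.9 TPM in A4KO libraries. CMPK2, a mitochondrial nucleotide kinase encoded beside it on chromosome 2, was at 1.76, 1.33 and 1.30 TPM in WT and 7.12, 6.67 and 6.03 TPM in A4KO libraries. Every A4KO library of both genes was above every WT library. RSAD2 rose 6.63-fold (log2 fold change 2.39, SE 0.058, limma adjusted p = 1.06e-06) and CMPK2 4.52-fold (log2 fold change 1.63, SE 0.090, limma adjusted p = 1.89e-05). The annotated RSAD2 and CMPK2 genes lie on chromosome 2 from 6865885 to 6898239 and from 6840553 to 6866635 and overlap at their ends, where reads cannot be assigned to either with certainty.

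BST2 (tetherin; chromosome 19, 17402939 to 17405630), which holds budding virions at the cell surface, was at 146, 136, 133 and 133 TPM in CAKi-1 WT and 74.5, 66.9, 68.2, 71.4 and 60.3 TPM in A4KO libraries. In 786O it was at 479, 471 and 488 TPM in WT and 585, 595 and 610.3 TPM in A4KO libraries. The groups were apart in each line and in opposite order. The log2 fold change was -0.998 in CAKi-1, just short of a call (SE 0.066, limma adjusted p = 1.48e-05), and 0.32 in 786O (SE 0.036, limma adjusted p = 0.000444). Without CAKi-1 A4KO replicates 1 and 4 BST2 was called lower, at -1.06.

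TRIM22, a ubiquitin ligase that restricts retroviruses, was at 18.9, 21.0 and 18.3 TPM in 786O WT and 52.1, 49.7 and 47.8 TPM in A4KO libraries, a 2.57-fold rise with no overlap (log2 fold change 1.32, SE 0.062, limma adjusted p = 1.08e-05). In CAKi-1 it was at 55.3, 53.6, 53.7 and 53.0 TPM in WT and 62.2, 48.3, 49.2, 72.3 and 49.9 TPM in A4KO libraries, with A4KO replicates 1 and 4 above and replicates 2, 3 and 5 below every WT library. The log2 fold change was 0.05 over all libraries (limma adjusted p = 0.793) and -0.13 over replicates 2, 3 and 5 (limma adjusted p = 0.0327). ISG20, an exonuclease that degrades RNA, was at 2.39, 2.61 and 2.24 TPM in 786O WT and 5.91, 6.72 and 8.23 TPM in A4KO libraries. It rose 2.88-fold there (log2 fold change 1.21, SE 0.11, limma adjusted p = 0.00015). In CAKi-1 ISG20 was at 8.53, 6.24, 5.89 and 7.35 TPM in WT and 5.28, 4.25, 5.19, 5.84 and 4.88 TPM in A4KO libraries, and it fell (log2 fold change -0.39, limma adjusted p = 0.019), although A4KO replicate 4 came within 0.1 TPM of the lowest WT library and the adjusted p was 0.0507 without WT replicate 4.

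GBP2, a guanylate-binding GTPase that acts on intracellular pathogens and is induced by interferon gamma, was the only ISG called higher in CAKi-1. It was at 6.07, 5.79, 8.58 and 9.08 TPM in WT and 47.8, 20.7, 13.4, 41.8 and 17.2 TPM in A4KO replicates 1 to 5. All A4KO libraries were above all WT libraries, and replicates 1 and 4 were the highest. The log2 fold change was 1.66 (SE 0.36, limma adjusted p = 0.00611) and 1.11 without those 2 libraries (limma adjusted p = 0.00319). In 786O GBP2 was at 3.06, 3.11 and 2.05 TPM in WT and 4.18, 4.06 and 4.45 TPM in A4KO libraries and rose by a log2 fold change of 0.50 (limma adjusted p = 0.0119). GBP1, its neighbor on chromosome 1, had log2 fold changes of 0.48 and -0.13 that did not pass (limma adjusted p = 0.105 and 0.051). In CAKi-1 GBP1 passed with the replicate block (adjusted p = 0.0221) and without WT replicate 4 (0.0319), but was 0.21 without A4KO replicates 1 and 4 (adjusted p = 0.39) and 0.29 neighbor-centered (adjusted p = 0.312). In 786O it passed as lower without low genes (0.0421), with trend and robust eBayes (0.0492) and without A4KO replicate 3 (0.0322), and was -0.02 neighbor-centered (adjusted p = 0.699). SAMD9L, which like SAMD9 restricts poxviruses, fell from 6.52 ± 0.492 to 4.17 ± 1.11 TPM in CAKi-1 and rose from 9.47 ± 0.884 to 11.4 ± 0.563 TPM in 786O (limma adjusted p = 0.0137 and 0.0229). In 786O the log2 fold change of 0.25 was 0.38 after quantile normalization, and it did not pass without WT replicate 2 or 3 or A4KO replicate 1 or 3 (adjusted p = 0.0598 to 0.0712). SAMD9 rose from 15.6 ± 0.499 to 21.5 ± 0.340 TPM in 786O (limma adjusted p = 0.000131). In CAKi-1 its log2 fold change of -0.22 did not pass (limma adjusted p = 0.14), but it passed as lower after quantile normalization (-0.27, adjusted p = 0.0354), neighbor-centered (-0.30, adjusted p = 0.0225) without A4KO replicate 4 (-0.29, adjusted p = 0.0419) and without A4KO replicates 1 and 4 (-0.37, adjusted p = 0.00327).

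In the ISG15 system, 3 of 4 genes fell in CAKi-1 (21.1% of all genes), and 3 rose and 1 fell in 786O (27.5% and 33.5%). ISG15 (chromosome 1, 1013497 to 1014540) was at 34.2, 33.7, 34.6 and 40.4 TPM in CAKi-1 WT and 21.5, 25, 21.9, 23.4 and 23.4 TPM in A4KO libraries. In 786O it was at 227, 207 and 216 TPM in WT and 314, 289 and 300.2 TPM in A4KO libraries. The lines again differed in order, with all A4KO libraries below WT in CAKi-1 (log2 fold change -0.61, SE 0.069, limma adjusted p = 0.000209) and above WT in 786O (log2 fold change 0.47, SE 0.052, limma adjusted p = 0.000385, and 0.30 neighbor-centered). HERC6, a ligase of the family that attaches ISG15, was at 11.1, 10.5, 10.1 and 10.5 TPM in CAKi-1 WT and 5.86, 6.76, 6.46, 7.57 and 7.36 TPM in A4KO libraries. In 786O it was at 9.94, 8.58 and 8.93 and 17.6, 17.3 and 17.5 TPM. It fell 1.55-fold in the first and rose 1.91-fold in the second, with no overlap in either (limma adjusted p = 0.000339 and 3.56e-05). HERC5, the main ISG15 ligase of human cells and the neighbor of HERC6 on chromosome 4, rose from 13.2 ± 0.529 to 17.7 ± 0.842 TPM in 786O (log2 fold change 0.40, limma adjusted p = 0.000657, and 0.24 neighbor-centered) and was at 10.1 ± 1.09 and 9.61 ± 1.14 TPM in CAKi-1 (limma adjusted p = 0.63). USP18, which removes ISG15 and dampens receptor signaling, fell by 0.26 in CAKi-1, which did not pass without WT replicate 2 (adjusted p = 0.0721) or 4 (0.0663), and by 0.25 in 786O, where it was at -0.13 after quantile normalization and higher by 0.17 neighbor-centered. Reads of USP18 are hard to assign because near-identical copies exist, so its values are uncertain.

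The IFI group of small induced proteins held the largest difference between the lines. IFI27 (chromosome 14, 94105894 to 94116690), a mitochondrial and nuclear envelope protein, was at 202, 183, 200.03 and 189 TPM in CAKi-1 WT and 41.4, 54.8, 42.9, 49.2 and 44.4 TPM in A4KO libraries. In 786O it was at 257, 278 and 276 TPM in WT and 456, 454 and 451 TPM in A4KO libraries. It was 4.15-fold lower in CAKi-1 A4KO cells (log2 fold change -2.04, SE 0.084, limma adjusted p = 8.91e-07) and 1.68-fold higher in 786O A4KO cells (log2 fold change 0.74, SE 0.043, limma adjusted p = 2.26e-05), with the groups far apart in each line.

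IFI6 (chromosome 1, 27666064 to 27672192), a membrane protein that limits flavivirus replication and apoptosis, fell in both lines. It was at 30.7, 25.9, 25.1 and 28.7 TPM in CAKi-1 WT and 17.4, 19.5, 18.0, 15.8 and 14.9 TPM in A4KO libraries. In 786O, where it was the most abundant ISG of WT cells, it was at 540.2, 539 and 549 TPM in WT and 215, 206 and 206 TPM in A4KO libraries. The fall was 1.61-fold in CAKi-1 (log2 fold change -0.66, SE 0.088, limma adjusted p = 0.000475, and -0.37 neighbor-centered) and 2.59-fold in 786O (log2 fold change -1.37, SE 0.036, limma adjusted p = 1.34e-06), without overlap. IFI35 fell in CAKi-1 from 60.6 ± 2.57 to 42.0 ± 2.13 TPM (limma adjusted p = 0.000141), and in 786O its log2 fold change of 0.14 passed with trend and robust eBayes (adjusted p = 0.0379) and without A4KO replicate 1 (0.0201) but not otherwise (limma adjusted p = 0.068), and was -0.02 neighbor-centered. The neighbors IFI44 and IFI44L on chromosome 1 went opposite ways in 786O, where IFI44 rose by 0.40 and IFI44L fell by 0.29 on the log2 scale (limma adjusted p = 0.00016 and 0.0047). Neither passed in CAKi-1, where IFI44L, at 0.31 (limma adjusted p = 0.0559), passed without low genes (0.0481), without A4KO replicate 3 (0.0381) and without A4KO replicate 5 (0.041), but was 0.16 without A4KO replicates 1 and 4 (adjusted p = 0.136) and 0.14 neighbor-centered (adjusted p = 0.335).

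DDX60, a helicase that assists RNA sensing, and XAF1, a pro-apoptotic partner of XIAP, rose in 786O alone by the adjusted p, and for each the difference between the lines passed its own test. DDX60 was at 9.33, 11.1 and 8.79 TPM in 786O WT and 26.9, 29.3 and 29.1 TPM in A4KO libraries. XAF1 was at 5.90, 4.45 and 5.73 TPM in WT and 14.5, 14.6 and 17.1 TPM in A4KO libraries. Neither gene's groups overlapped, and the rises were 2.93-fold (log2 fold change 1.46, SE 0.084, limma adjusted p = 2.28e-05) and 2.88-fold (log2 fold change 1.37, SE 0.11, limma adjusted p = 9.02e-05). In CAKi-1 DDX60 was at 6.65, 6.48, 6.76 and 7.03 TPM in WT and 8.04, 6.06, 5.72, 6.94 and 5.82 TPM in A4KO libraries. XAF1 was at 5.22, 5.80, 6.30 and 5.35 and 6.56, 5.64, 4.85, 6.77 and 5.08 TPM there. The groups overlapped for both (limma adjusted p = 0.697 and 0.905), and without A4KO replicates 1 and 4 DDX60 was lower in CAKi-1 A4KO cells by a log2 fold change of -0.17 (limma adjusted p = 0.0191).

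PARP9 and DTX3L encode partners of a complex that joins ADP-ribosylation to ubiquitination. The starts used for their windows on chromosome 3 face away from each other. Annotated at their longest, PARP9 (122527924 to 122564784) and DTX3L (122564338 to 122575203) overlap at their ends. The ISRE letters found in the window of each lie in the stretch that the windows share. They are the same bases read on opposite strands, so this site counted for both genes. Both fell in CAKi-1, PARP9 from 15.8 ± 1.62 to 9.22 ± 0.395 TPM and DTX3L from 19.1 ± 1.13 to 12.0 ± 0.366 TPM (limma adjusted p = 0.000108 and 4.06e-05). In 786O their log2 fold changes of 0.07 and 0.08 did not pass the test, with DTX3L past it after quantile normalization (0.11, adjusted p = 0.0294) and at -0.06 neighbor-centered (adjusted p = 0.169). PARP14, nearby on chromosome 3, rose in 786O from 25.1 ± 1.25 to 33.6 ± 1.5 TPM (log2 fold change 0.40, limma adjusted p = 0.000793, and 0.26 neighbor-centered). In CAKi-1 it passed as higher neighbor-centered alone (0.31, adjusted p = 0.0335). EPSTI1 was at 1.80 ± 0.286 and 1.55 ± 0.396 TPM in CAKi-1 and at 7.51 ± 0.450 and 8.21 ± 0.641 TPM in 786O and passed in neither line. In 786O EPSTI1 was higher after quantile normalization (0.27, adjusted p = 0.00791) and lower neighbor-centered (-0.29, adjusted p = 0.00686), so its direction rests on the scaling.

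**Figure D3:**
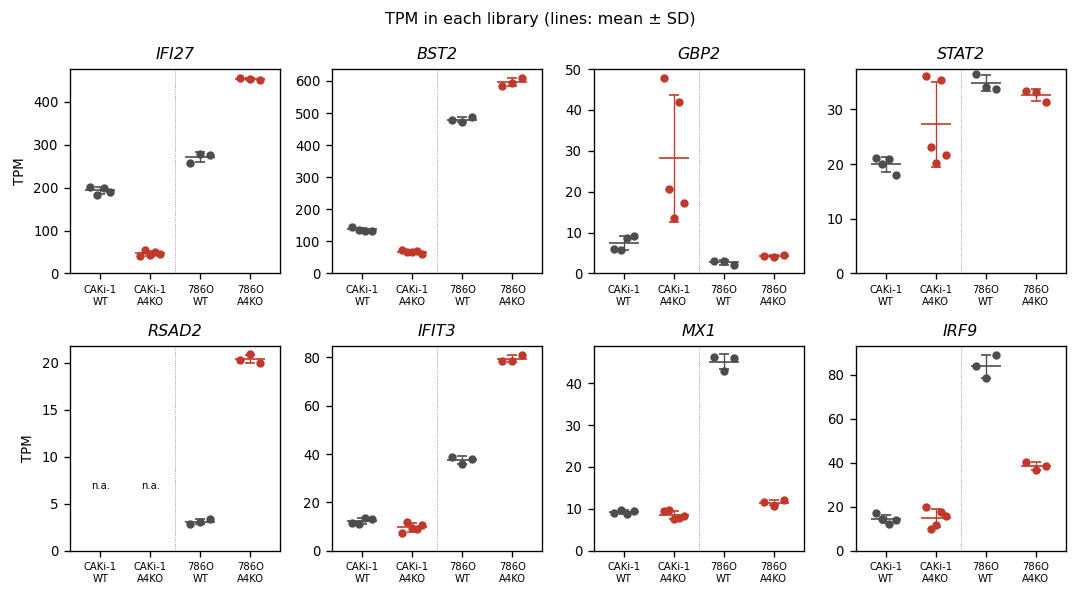
Points are single libraries, with TPM on axes that start at 0 and lines at the mean ± SD, for WT (grey) and A4KO (red) cells of each line, and n.a. where a gene was not measured. IFI27 and BST2 fell in CAKi-1 and rose in 786O, A4KO replicates 1 and 4 of CAKi-1 are the upper points of GBP2 and STAT2, and RSAD2 and IFIT3 rose while MX1 and IRF9 fell in 786O.

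The effect of the knockout differed between the lines for 31 of 41 ISG (75.6%) by the interaction term of limma, against 55.1% of the 15247 genes measured in both. The difference was -2.78 log2 units for IFI27 (CAKi-1 minus 786O, SE 0.11, adjusted p = 2.25e-10), -1.60 for ISG20 (adjusted p = 2.61e-06), -1.51 for DDX60 (adjusted p = 5.61e-07) and -1.44 for HERC6 (adjusted p = 5.47e-08). It was positive for MX1, at 1.78 (SE 0.11, adjusted p = 1.16e-08), and for IRF9, at 1.12 (adjusted p = 0.00171). With the shift of chromosomal neighbors taken off, the differences of IRF9 (0.19, adjusted p = 0.513), OASL (-0.10, adjusted p = 0.613) and IFI16 (-0.16, adjusted p = 0.107) did not pass. Of the 41 genes, 9 (22%, against 16% of the genes of both tables) passed in both lines with opposite signs (RIGI, OAS1, EIF2AK2, BST2, ISG20, SAMD9L, ISG15, HERC6 and IFI27), and of these RIGI was the only one higher in CAKi-1. Another 7 (17.1%, against 12%) passed in both lines with the same sign, with DHX58, IFIT2, OASL and GBP2 higher and IFI16, USP18 and IFI6 lower. OAS2, OAS3, IFI35, PARP9 and DTX3L passed in CAKi-1 alone (12.2%, against 12%), 14 passed in 786O alone (34.1%, against 35.1%), and IRF1, STAT2, IFIH1, IFIT1, GBP1 and EPSTI1 in neither (14.6%, against 24.9%). These groupings hold for the values as deposited. With neighbor-centered values IRF1, IRF7, SAMD9 and PARP14 also passed in CAKi-1 and OAS2 did not, and STAT2, OAS2, OAS3 and EPSTI1 also passed in 786O and EIF2AK2 did not, while USP18 turned to higher in 786O and was still lower in CAKi-1 (-0.23, adjusted p = 0.0374). For GBP2 the difference between the lines was 1.16 (adjusted p = 0.0541), so its larger rise in CAKi-1 was not past the threshold, although it passed without CAKi-1 A4KO replicates 1 and 4 (0.62, adjusted p = 0.0496), without A4KO replicate 3 (1.37, adjusted p = 0.0136) or 5 (1.29, adjusted p = 0.0351), without low genes (0.0474) and with the replicate block (1.29, adjusted p = 0.0432). For STAT2 the difference of 0.48 (adjusted p = 0.0988) passed neighbor-centered (0.59, adjusted p = 0.0441) and without CAKi-1 A4KO replicate 3 (0.57, adjusted p = 0.0358).

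The ISRE letters shown above were found in genes of either direction. Of the 23 ISG with a match, 13 rose and 3 fell in 786O, with a median log2 fold change of 0.32, where 31.5% of the 502 measured genes with a match rose and 31.1% fell. Of the 11 with a window and no match, 5 rose and 3 fell, with a median of 0.14, where 29.3% of the genes without a match rose and 34.9% fell. In CAKi-1 none of 22 with a match rose and 9 fell, and of 10 without a match 1 rose and 5 fell, with medians of -0.18 and -0.16, where 18.8% of the measured genes with a match rose and 23.8% fell and 18.2% and 22.3% of those without. DHX58, IFIT2, OASL and GBP2, which are 4 of the 5 ISG that rose in CAKi-1, had no window and so were in neither class. IFI6, with 3 matches, and IFI27, with 2, both fell in CAKi-1, whereas in 786O IFI6 fell and IFI27 rose.

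The expressed genes around some ISG had a median shift between A4KO and WT cells, in 786O and in CAKi-1. Each ISG was therefore also set against the median shift of the 25 expressed genes on either side of it. In 786O the neighbors of IRF9 were lower by 0.84 log2 units in A4KO cells. IRF9 itself fell by 1.10, which leaves -0.26 relative to them (adjusted p = 0.014). The neighbors of IFI27, on the same chromosome 14, were lower by 0.69 while IFI27 was higher, and relative to them it was 1.43 higher. The neighbors of XAF1 were lower by 0.52, which puts XAF1 at 1.89 relative to them, and those of DDX60 were higher by 0.48, which puts DDX60 at 0.98. For MX1 the neighbors moved by less than 0.01, and for RSAD2 and CMPK2 they were higher by 0.22 and 0.23, far less than the genes themselves. In CAKi-1 the neighbors of IRF7 were lower by 0.33 and those of IFI6 by 0.29. With neighbors taken off, 6 of 43 ISG were called higher and 2 lower in 786O, against 374 and 685 of all 16188 genes. IFIT3, ISG20 and DDX60 came to just under 1, IRF9 lost its call and IFI27 gained one. The cause of these shifts was not tested.

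**Figure D4:**
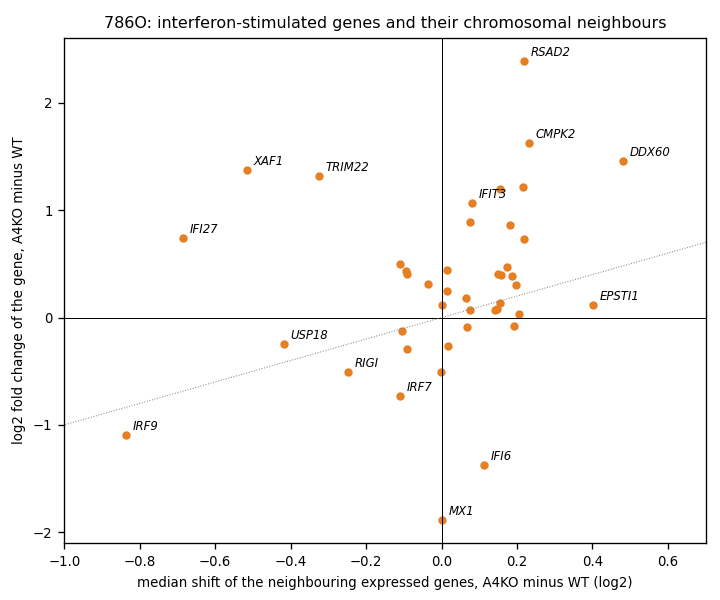
Each point is 1 interferon-stimulated gene in 786O, with the median shift of its neighboring expressed genes on the x axis and its own log2 fold change on the y axis (both A4KO minus WT). IRF9 and USP18 lie near the dotted line where gene and neighbors move alike, while RSAD2, MX1 and IFI6 lie far from it.

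A wider list of 103 genes of interferon signaling held 89 measured in CAKi-1 and 93 in 786O. IFNE was the only interferon ligand measured, at 1.04 ± 0.212 TPM in CAKi-1 WT and 0.368 ± 0.187 TPM in 786O WT, and did not pass in either line. In CAKi-1 15 of 89 rose (16.9%, against 17.9% of all genes) and 25 fell (28.1%, against 21.1%), and in 786O 32 of 93 rose (34.4%, against 27.5%) and 38 fell (40.9%, against 33.5%). In CAKi-1 the receptor chain IFNGR1 rose from 21.5 ± 5.00 to 50.1 ± 8.99 TPM (limma adjusted p = 0.000577), and in 786O it fell from 28.0 ± 1.20 to 19.3 ± 1.11 TPM (limma adjusted p = 0.00034). SOCS1, a feedback inhibitor of the Janus kinases, rose by 1.68 on the log2 scale in CAKi-1 and fell by 1.65 in 786O (limma adjusted p = 0.000295 and 2.36e-05). Without CAKi-1 A4KO replicates 1 and 4 the log2 fold changes were 1.02 for IFNGR1 and 1.62 for SOCS1, both at an adjusted p under 0.05.

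Among the other induced genes of that list, TNFSF10 (TRAIL) was 5.02-fold higher in CAKi-1 A4KO cells, and IDO1, a tryptophan-degrading enzyme, rose from 0.265 ± 0.189 to 2.53 ± 1.5 TPM (limma adjusted p = 9.17e-06 and 0.00456). IDO1 was at 0.97 on the log2 scale without A4KO replicates 1 and 4. IFITM2, which blocks viral entry, fell 2.44-fold in CAKi-1 and rose 4.20-fold in 786O (limma adjusted p = 0.000101 and 5.55e-07). In 786O the RNA sensor TLR3 (1.59 on the log2 scale), the factor IRF5 (1.18), the phosphatase PTPN6 (1.52) and GBP4 (1.58) were called higher. Called lower there, beside SOCS1, were SOCS2 (-1.06), the cytidine deaminases APOBEC3B (-1.16) and APOBEC3G (-1.76), the tryptophanyl-tRNA synthetase WARS1 (-1.74), LY6E (-1.78), TYMP (-1.01), and IFI27L1 (-1.06) and IFI27L2 (-1.37), which lie beside IFI27 on chromosome 14. These 2 fell in 786O, where their neighbor IFI27 rose. The expressed genes around IFI27 had a median shift of -0.69 log2 units there. No neighbor-centered values are given for genes of the wider list, so their changes include any shift of their neighbors.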

How the data were processed

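RNA-seq data of 15 libraries were analysed, whose genotype and replicate number the labels give. Reads were pseudoaligned to hg38 with kallisto by the authors, who deposited 1 table of gene-level TPM for each line, a unit inferred here from values that are not whole and near-equal sums per library. How transcripts became genes, and the filter on genes, are not given in the sources used here. The interferon-stimulated genes and the wider list were chosen with earlier results of these data known. For each line a limma model (version 3.58.1, lmFit and eBayes, two-sided, R 4.3.3) of log2(TPM + 1) took genotype as its term, with every gene of the table kept and p-values adjusted over them by Benjamini-Hochberg. Calls needed a change of at least 1 log2 unit in either direction and an adjusted p not above 0.05, and the adjusted p alone was counted as a second rule. The difference between the lines was the line by genotype interaction over the genes of both tables. Levels were not tested between lines, since the tables were made separately. The method was tested on simulated data.

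Values in every library are given for 20 genes, namely those called in either line, the factors STAT2, IRF1, IRF7 and IRF9, the 3 of highest mean TPM in each line, and those whose interaction passed with a size of at least 1. Genes of the wider list are named where called, except for an item that is not reported here, and IFNE was named after its values were seen. Positions are those of RefSeq on GRCh38.p14, and 16147 genes of CAKi-1 and 16039 of 786O had one for the neighbor-centered values, which subtract, library by library, the median deviation among 25 genes upstream and 25 downstream whose mean log2 is 1 or more. Alternatives were a pseudocount of 0.1, leaving out low genes, quantile normalization, eBayes with trend and robust options, the replicate number as a block, neighbor-centered values, A4KO replicates 2, 3 and 5 of CAKi-1 alone, and each library left out in turn.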

Additional observations from a re-analysis of the deposited data

Results flagged for a closer look

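ISG15 in CAKi-1 WT replicate 4, at 40.4 TPM, stood apart from the other 3 WT libraries by more than the 95% limit of Dixon's test allows. It was the only such sample in 36 groups examined, and chance alone gives about 1 in 20.

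For 15 of the genes described in full, the effect of the knockout differed between the lines by the limma interaction term, given as CAKi-1 minus 786O in log2 units. Some of these genes were described because they passed that test, so their number carries no weight. Over the whole list 31 of 41 ISG (75.6%) passed it, against 55.1% of the genes measured in both lines. The difference was -2.78 for IFI27, -1.60 for ISG20, -1.51 for DDX60, -1.44 for HERC6, -1.39 for IFIT3, -1.36 for XAF1, -1.31 for BST2, -1.27 for TRIM22 and -1.08 for ISG15. It was smaller for OASL (-0.43) and IFI16 (-0.36), and neither passed once the shift of chromosomal neighbors was taken off, nor did that of OASL under 13 other alternatives. It was positive for MX1 (1.78), IRF9 (1.12, and 0.19 with an adjusted p of 0.513 neighbor-centered), IRF7 (0.78) and IFI6 (0.71). In 786O, where IRF9 and MX1 fell, the neighbors of IRF9 fell with it and those of MX1 did not.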

How the results depend on the processing

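The 8 higher and 3 lower calls in 786O were the same genes with a pseudocount of 0.1, without low genes, after quantile normalization, with trend and robust eBayes and with the replicate block. The neighbor-centered calls were 6 and 2, with 374 and 685 of all 16188 genes called. In CAKi-1 BST2, whose log2 fold change lies close to -1, made the lower calls 2 with a pseudocount of 0.1, neighbor-centered values or A4KO replicates 2, 3 and 5 alone, and 1 to 2 when single libraries were left out. A pseudocount of 0.1 also made the higher calls 2, with OASL, and neighbor-centering raised the number of ISG higher by the adjusted p to 8 of 41, with 20.7% of all genes higher. The median log2 fold change in CAKi-1 was -0.17 over A4KO replicates 2, 3 and 5 and -0.068 neighbor-centered, and in 786O it was 0.33 after quantile normalization, 0.20 neighbor-centered and 0.24 to 0.33 with a library left out. Of all genes, 693 higher and 384 lower calls were made in CAKi-1 and 689 and 1406 in 786O with a pseudocount of 0.1. Log2 fold changes near 0 in CAKi-1 changed sign without passing the test, except for TRIM22. IRF9 was at -0.0143 with the replicate block, -0.0683 neighbor-centered, -0.21 over A4KO replicates 2, 3 and 5, and from -0.0881 to 0.147 with a library left out. XAF1 was at -0.0441 after quantile normalization, -0.11 over those replicates and from -0.0340 to 0.0683 with a library left out. TRIM22 was at -0.13 over those replicates and from -0.0479 (without A4KO replicate 4) to 0.0950 with a library left out. DDX60 was at 0.0154 neighbor-centered, and IRF7 from -0.00509 (without A4KO replicate 4) to 0.0804. The differences between the lines of OASL (-0.10, adjusted p = 0.613), IRF9 (0.19, adjusted p = 0.513) and IFI16 (-0.16, adjusted p = 0.107) did not pass neighbor-centered, and that of OASL also failed under 13 other alternatives. The cause of these changes was not tested.

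The replicate numbers did not pair the libraries, since deviations of libraries with the same number correlated between -0.06 and 0.14. With the replicate block the interaction was passed by 30 ISG, and the share of all genes that passed it then was not counted. The calls were 1 and 1 in CAKi-1, where 393 and 210 of all 16296 genes were called. That block leaves A4KO replicate 5 without a partner. TPM keeps no depth, so counting error could not be given, and with 3 to 5 libraries a group the smallest change that passed among ISG was 0.15 in CAKi-1 and 0.18 in 786O on the log2 scale.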
